A study of Homo sapiens with 4 samples.

Results

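The genes described here encode the machinery of autophagy, the process by which a cell wraps part of its cytoplasm in a membrane and delivers it to the lysosome, and of mitophagy, its branch for mitochondria. The list held 49 genes: 16 of initiation and membrane supply, 11 of the conjugation systems, 5 of the ATG8 family, 5 cargo receptors and 12 of mitophagy. Each was taken from the row of the expression table that carried its symbol, and it entered the test when at least 2 libraries reached 0.5 FPKM (fragments per kilobase of transcript, relative to all mapped fragments of the library). By this filter 48 of the 49 genes were tested, among 13291 rows in all. The gene left out was MAP1LC3A, an ATG8 paralogue, which was listed at 0 in every library.

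The cells were B-CPAP, an established human papillary thyroid carcinoma line. LDHA knockdown cells carried a short hairpin RNA against LDHA (shLDHA), the A subunit of lactate dehydrogenase, and control cells carried a hairpin against GFP (shGFP). Each group had 2 RNA-Seq libraries. Per the study's methods the hairpins were delivered by lentivirus and infected cells were selected with puromycin, which both groups share. Neither the labels nor the methods tell if the 2 libraries of a group are separate cultures or, for shLDHA, separate hairpins, so p-values rest on the spread between libraries only, and that spread could be technical. Because the table holds FPKM and not counts, the depth of the libraries is unknown and no counting interval is given. In bulk RNA, fewer cells of a kind and less RNA per cell cannot be told apart.

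As background, autophagy starts when the ULK kinase complex, held back by mTORC1 in fed cells, is released and activates a class III PI3-kinase complex around Beclin 1 at the site where the membrane grows. ATG9 vesicles, ATG2 and the WIPI proteins supply lipid, and a pair of ubiquitin-like systems then joins ATG12 to ATG5 and the ATG8 proteins (LC3 and GABARAP) to phosphatidylethanolamine. Receptors such as p62 bind ubiquitin on cargo and LC3 or GABARAP on the membrane. In mitophagy, the kinase PINK1 accumulates on depolarised mitochondria and marks them with phospho-ubiquitin, while receptors in the outer membrane, such as FKBP8 and FUNDC1, bind LC3 directly. These steps are regulated largely on proteins, which were not measured here.

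LDHA itself was listed at 184 and 203 scaled FPKM in LDHA knockdown cells, against 1049 and 1056 in control cells. Scaled FPKM are the deposited values after a TMM factor per library, and are used below unless stated. The log2 fold change (shLDHA over shGFP) was -2.44 (SE 0.08, limma adjusted p = 0.0076), so the hairpin's target was lower in both libraries labelled shLDHA. Without shGFP replicate 1 the LDHA change was -2.45 at an adjusted p of 0.14, and without shGFP replicate 2 it was -2.44 at 0.13.

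The libraries differed in other ways that bear on the values below. The share of all FPKM on rows of mitochondrial RNAs was 8.38% and 5.79% in LDHA knockdown cells, against 12.8% and 12.4% in control cells. Rows without a gene name took 0.440% and 3.53% in LDHA knockdown cells, against 0.431% and 0.361% in control cells. The shLDHA libraries were less alike than the shGFP libraries: the median absolute log2 difference within a pair was 0.217 for shLDHA and 0.125 for shGFP, and 0.260 against 0.0841 over the 48 genes. The thyroid follicular markers TG, TSHR, SLC5A5 and NKX2-1 stayed under 0.5 FPKM in every library, and the thyroid markers summed to 99.6 and 82.6 in LDHA knockdown cells against 92.6 and 92.2 in control cells, nearly all of it PAX8. FOXE1, the other thyroid marker above 0.5 FPKM, fell, at 2.66 and 3.09 in LDHA knockdown cells against 4.73 and 5.20 in control cells (log2 fold change -0.77, limma adjusted p = 0.029). The keratin list summed to 860 and 859 against 779 and 758, with KRT19 under 0.5. The leukocyte and endothelial markers PTPRC, CD3E and CDH5 were listed at 0 in every library and PECAM1 and VWF were under 0.5 FPKM, and the leukocyte and endothelial markers summed to 49.3 and 42.6 in LDHA knockdown cells against 27.3 and 27.1 in control cells, nearly all of it the lysosomal gene CD68. CD68 rose (log2 fold change 0.72, adjusted p = 0.014), as did CD14, at 2.00 and 1.16 in LDHA knockdown cells against 0.442 and 0.401 in control cells (1.64, adjusted p = 0.035). The part of other cells or of cell state in the results below was not tested.

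With TMM scaling the autophagy genes changed in both directions, at rates near those of all rows tested. Of the 48 genes tested, 9 rose, 6 fell and 33 did not pass at an adjusted p under 0.05. The 9 that rose make 18.8% of the list, where 18.1% of all rows tested rose, and the 6 that fell make 12.5%, where 12.9% of all rows fell. The numbers of changed genes were thus near the background. The median log2 fold change was 0.009 over the list and -0.004 over all rows tested, with 24 genes above and 24 below 0, and 22 had an unadjusted p under 0.05. Both shLDHA libraries lay above both shGFP libraries for 20 genes (41.7%, against 36.4% of all rows) and below them for 17 (35.4%, against 36.1%), and all 15 genes that passed were among them.

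**Figure D1:**
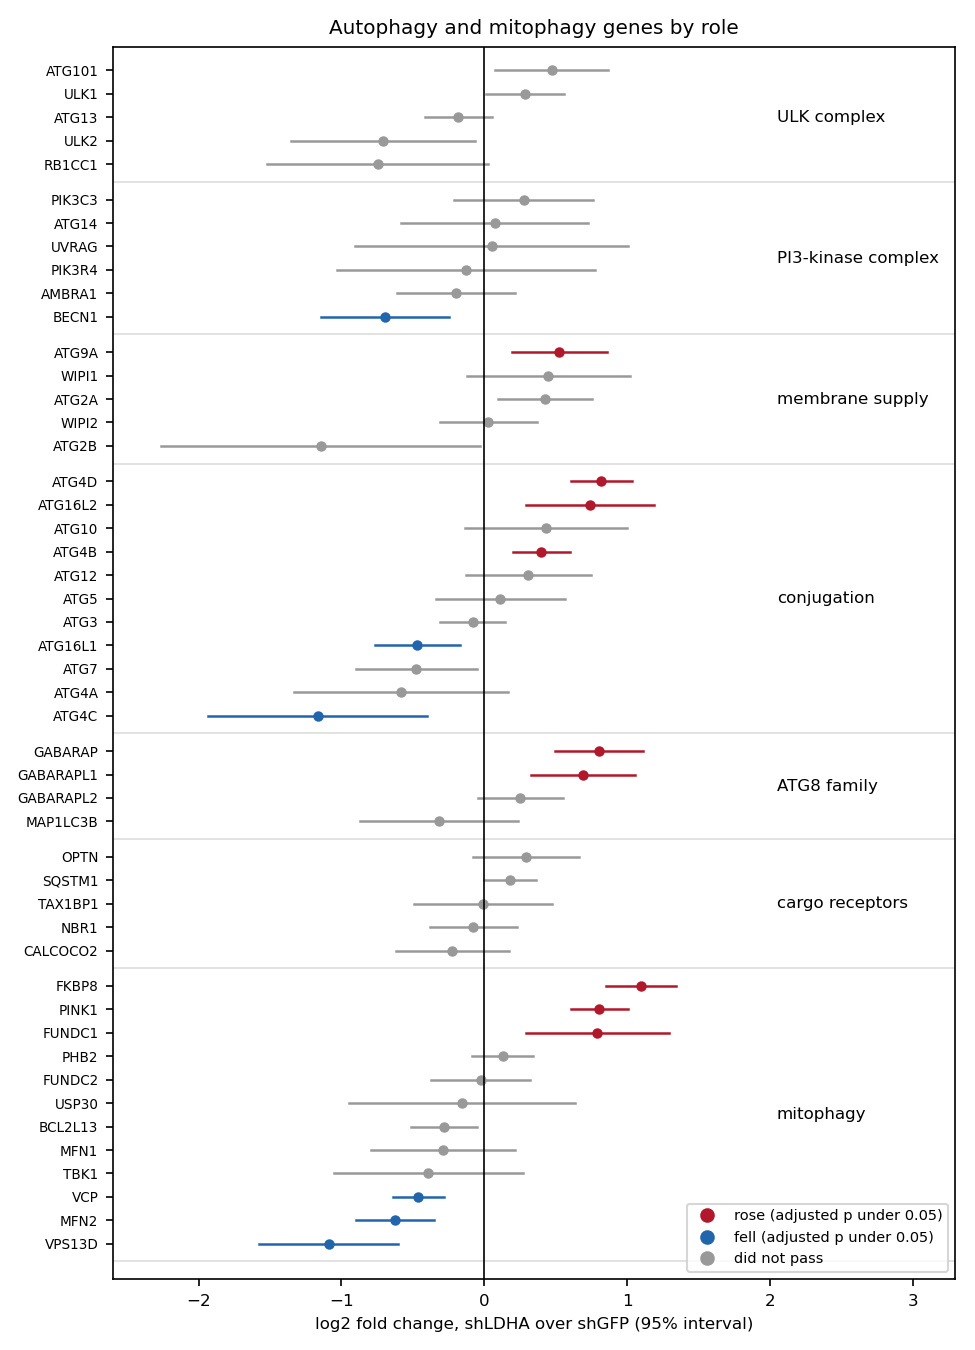
Log2 fold change, shLDHA over shGFP, of the 48 tested genes with its 95% interval (limma, 2 libraries per group), grouped by role. Red genes rose, blue genes fell and grey genes did not pass; genes of both directions stand within the conjugation and mitophagy groups, and none of the ULK complex or of the 5 cargo receptors passed.

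The direction of the list depends on how the libraries are scaled. Without TMM scaling the median of all rows moved by -0.33 on the log2 scale, and 2 of the 48 genes rose and 11 fell, where 6.8% of all rows rose and 23.4% fell. Below 0 stood 24 of the 48 genes with TMM scaling, 35 as deposited and 40 with every library given the same total. The even split thus goes with TMM scaling, which left the median of all rows near 0. Changes below are relative to the TMM scaling. With 1 shGFP library left out, no gene of the list and none of the 13291 rows passed under limma: 9 of the 48 genes had an unadjusted p under 0.05 without shGFP replicate 1 and 11 without shGFP replicate 2, and the adjusted p of the 15 genes lay between 0.14 and 0.25 and between 0.13 and 0.21. Each call below therefore rests on both control libraries, and an exact permutation test of 2 against 2 libraries cannot give a two-sided p below 0.333. A fit without 1 shLDHA library takes its spread between libraries from the shGFP pair alone, the closer pair. Passing in such a fit is not firmer evidence.

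The ULK complex, whose kinase starts autophagosome formation, had no gene that passed. ULK1, the kinase itself, was listed at 10.1 and 10.6 in LDHA knockdown cells, against 8.70 and 8.29 in control cells. Both shLDHA libraries were higher, but the log2 fold change of 0.28 (SE 0.10) did not pass (adjusted p = 0.10), and it was -0.06 on the values as deposited. With offsets for transcript length ULK1 passed at 0.52 (adjusted p = 0.026), and with offsets for length and GC content together it was -0.06 again, so its direction is not settled by these 4 libraries. ULK2, its paralogue, had 1.12 and 0.920 in LDHA knockdown cells and 1.57 and 1.88 in control cells (log2 fold change -0.71, adjusted p = 0.089). RB1CC1 (FIP200), the scaffold of the complex, stood at -0.75 (adjusted p = 0.11), ATG13 at -0.18 (0.17) and ATG101, which stabilises ATG13, at 0.47 (0.074). ULK1 made up 90.0% and 92.0% of the summed FPKM of both kinases in LDHA knockdown cells and 84.7% and 81.5% in control cells. Such a share within a library does not depend on the scaling between libraries, and it did not overlap between the groups. With 2 libraries a group such separation was common. In scaled FPKM, 36.4% of all rows tested had both shLDHA libraries above both shGFP libraries and 36.1% had them below. No such rate was computed for shares, and in a pair of genes the shares mirror each other. The annotated transcript of ULK1 has 5322 bases and 64.2% GC, and that of ULK2 9149 bases and 47.6%. With length and GC offsets the log2 fold changes were -0.06 for ULK1 (adjusted p = 0.75) and -0.25 for ULK2 (0.47), so the difference between them was smaller.

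In the PI3-kinase complex, BECN1 was the gene that changed among the 6 tested. BECN1 encodes Beclin 1, the core subunit that anti-apoptotic BCL2 proteins bind (chr17:40962152-40985367, GRCh37). It was listed at 14.3 and 10.6 in LDHA knockdown cells, against 20.6 and 19.4 in control cells. The groups did not overlap, and BECN1 fell by 0.70 on the log2 scale (SE 0.17, adjusted p = 0.043). The call was lost without the low-value filter (0.081), without a variance trend (0.074) and with length and GC offsets (0.079), always in the same direction. BECN1 shares 4.7% of its exon bases with PSME3 on the opposite strand, whose row reached 192 FPKM. It shares 12.4% with CNTD1, also on the opposite strand, at 0.28 FPKM or less. The catalytic subunit PIK3C3 (VPS34) stood at 0.27, its regulatory partner PIK3R4 at -0.13, the autophagy-specific subunit ATG14 at 0.07, the endosomal subunit UVRAG at 0.05 and AMBRA1, a Beclin 1 partner, at -0.20, with adjusted p from 0.30 to 0.92. PIK3R4 and UVRAG differed more within the shLDHA pair (5.32 and 2.95, and 1.48 and 0.872) than between the group means.

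Of the 5 genes of membrane supply, ATG9A rose. ATG9A is the multispanning scramblase carried by vesicles that seed the growing membrane (chr2:220084102-220094439, GRCh37). It had 73.1 and 59.1 in LDHA knockdown cells, against 45.8 and 45.5 in control cells. Both shLDHA libraries were higher, by 0.53 on the log2 scale (SE 0.12, adjusted p = 0.040), and on the values as deposited the groups overlapped (69.9 and 48.8 FPKM against 51.8 and 51.0) at 0.18 (adjusted p = 0.50). ATG9A shares 38.8% of its annotated exon bases with a longer protein-coding model on the same strand, from which its reads cannot be told apart in this table. ATG2A, which transfers lipid from the endoplasmic reticulum, had 25.9 and 21.4 in LDHA knockdown cells and 17.2 and 17.8 in control cells (log2 fold change 0.42, adjusted p = 0.062). Its paralogue ATG2B was near the limit of the table, at 0.220 and 0.145 in LDHA knockdown cells and 0.522 and 0.517 in control cells (-1.15, adjusted p = 0.10). The phosphoinositide-binding proteins WIPI1 and WIPI2 stood at 0.45 (adjusted p = 0.17) and 0.03 (0.88).

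The conjugation genes split within families of paralogues. Of 11 genes, ATG4D, ATG16L2 and ATG4B rose, ATG4C and ATG16L1 fell, and ATG3, ATG4A, ATG5, ATG7, ATG10 and ATG12 did not pass. The ATG4 proteases trim ATG8 proteins before they are joined to lipid and later release them. ATG4D (chr19:10654571-10664094, GRCh37) had 40.2 and 38.2 in LDHA knockdown cells, against 21.8 and 22.5 in control cells, and rose by 0.82 (SE 0.08, adjusted p = 0.0089). The ATG4D groups did not overlap in the deposited values either (38.4 and 31.6 FPKM against 24.7 and 25.2), where the change was 0.48 (adjusted p = 0.062). With length and GC offsets it was 0.15 (adjusted p = 0.20). ATG4D shares 14.7% of its exon bases with KRI1 on the opposite strand, whose row reached 12.5 FPKM.

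ATG4B, the most abundant and most active ATG4 protease (chr2:242576628-242613272), had 62.9 and 62.3 in LDHA knockdown cells, against 48.8 and 46.1 in control cells. It rose by 0.40 (SE 0.07, adjusted p = 0.024), a direction that turned to -0.10 (adjusted p = 0.57) when every library was given the same total. ATG4C (chr1:63249803-63331187) was low, at 0.764 and 0.521 in LDHA knockdown cells against 1.57 and 1.53 in control cells, and fell by 1.17 (SE 0.29, adjusted p = 0.044; 0.080 without shLDHA replicate 2). ATG4A had 0.555 and 0.642 in LDHA knockdown cells and 0.902 and 0.990 in control cells (-0.58, adjusted p = 0.17). Within the summed FPKM of the family, ATG4D took 38.5% and 37.6% in LDHA knockdown cells against 29.8% and 31.6% in control cells. The share of ATG4B was 60.3% and 61.3% in LDHA knockdown cells against 66.8% and 64.8% in control cells, and ATG4C had 0.733% and 0.512% against 2.14% and 2.15%. None of these shares overlapped between the groups. Nor did those of the ATG2, WIPI, FUNDC and mitofusin pairs, so such separation was not particular to this family. The summed ATG4 family stood at 104 and 102 scaled FPKM in LDHA knockdown cells against 73.1 and 71.0 in control cells (99.7 and 84.0 against 82.7 and 79.6 FPKM as deposited). With length and GC offsets the log2 fold changes of ATG4D and ATG4B were 0.15 (adjusted p = 0.20) and 0.16 (0.16), so ATG4D no longer stood above ATG4B.

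ATG16L1 and ATG16L2 moved in opposite directions. ATG16L1 is the subunit that brings the ATG12-ATG5 conjugate to the membrane (chr2:234118697-234204320), whereas ATG16L2 is a paralogue that forms a similar complex but is reported as dispensable for canonical autophagy. ATG16L1 had 6.97 and 7.60 in LDHA knockdown cells, against 10.4 and 9.84 in control cells, and fell by 0.47 (SE 0.11, adjusted p = 0.041; 0.070 without shLDHA replicate 1). ATG16L2 (chr11:72525451-72554719) had 3.73 and 3.61 in LDHA knockdown cells, against 1.99 and 2.33 in control cells, and rose by 0.74 (SE 0.17, adjusted p = 0.037; 0.089 without shLDHA replicate 1 and 0.080 without shLDHA replicate 2). ATG16L2 therefore held 34.8% and 32.2% of their summed FPKM in LDHA knockdown cells, against 16.1% and 19.1% in control cells. With length and GC offsets neither passed, at -0.25 for ATG16L1 (adjusted p = 0.17) and 0.22 for ATG16L2 (0.38).

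The remaining conjugation enzymes did not pass. ATG7, the activating enzyme of both systems, had 15.6 and 13.0 in LDHA knockdown cells and 21.9 and 17.8 in control cells (log2 fold change -0.48, adjusted p = 0.083). The conjugating enzymes ATG3 and ATG10 stood at -0.08 (adjusted p = 0.50) and 0.43 (0.18). ATG5 stood at 0.11 (0.63) and its partner ATG12 at 0.31 (0.21).

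The ATG8 family, the proteins that coat the autophagosome, was dominated by GABARAP, and 2 of its 4 tested genes rose. GABARAP (chr17:7143327-7145768, GRCh37) had 392 and 331 in LDHA knockdown cells, against 196 and 217 in control cells. The groups did not overlap, also in the deposited values (375 and 274 FPKM against 222 and 244), and GABARAP rose by 0.80 (SE 0.12, adjusted p = 0.016). GABARAPL1 (chr12:10365057-10375727) had 10.2 and 12.3 in LDHA knockdown cells, against 6.80 and 7.05 in control cells, and rose by 0.69 (SE 0.14, adjusted p = 0.027). As deposited, the changes were 0.46 for GABARAP and 0.35 for GABARAPL1 (adjusted p = 0.11 for both). With length offsets they were 0.39 (adjusted p = 0.074) and 0.46 (0.058), and with length and GC offsets they were 0.65 (adjusted p = 0.032) and 0.71 (0.025). GABARAP shares 35.4% of its annotated exon bases with a longer protein-coding model on the same strand.

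MAP1LC3B, which encodes LC3B, the usual marker protein of autophagosomes, did not pass. It had 12.6 and 18.6 in LDHA knockdown cells, against 18.9 and 19.4 in control cells. Both shLDHA values were below the controls, but shLDHA replicate 2 lay close to them, and the log2 fold change was -0.32 (SE 0.21, adjusted p = 0.29). Without shLDHA replicate 2 it was -0.60, and without shLDHA replicate 1 it was -0.04. On the values as deposited it was -0.66 (adjusted p = 0.040). The size and the call of the MAP1LC3B change thus turn on 1 library and on the scaling. GABARAPL2, the member that acts late in autophagosome closure, had 35.7 and 42.5 in LDHA knockdown cells, against 32.6 and 32.7 in control cells (0.25, SE 0.11, adjusted p = 0.15). It was -0.09 on the values as deposited, -0.26 with length offsets and 0.38 without shLDHA replicate 1. The near-identical MAP1LC3B2 and the processed copy GABARAPL3 were listed at 0.34 FPKM or less in every library, and no source says how reads shared with them were placed.

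The make-up of the ATG8 transcripts shifted toward GABARAP. GABARAP took 87.0% and 81.9% of the family's summed FPKM in LDHA knockdown cells, against 77.1% and 78.6% in control cells. MAP1LC3B took 2.80% and 4.60% in LDHA knockdown cells against 7.43% and 7.02% in control cells, and GABARAPL2 took 7.92% and 10.5% against 12.8% and 11.8%. The GABARAPL1 share overlapped between the groups. The summed family stood at 451 and 405 scaled FPKM in LDHA knockdown cells, against 255 and 276 in control cells, and at 430 and 334 against 288 and 310 FPKM as deposited. The annotated transcripts are 1319 bases long for GABARAP, 2147 for MAP1LC3B and 974 for GABARAPL2, and with length and GC offsets the log2 fold changes were 0.65, -0.20 and 0.03 for these genes.

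**Figure D2:**
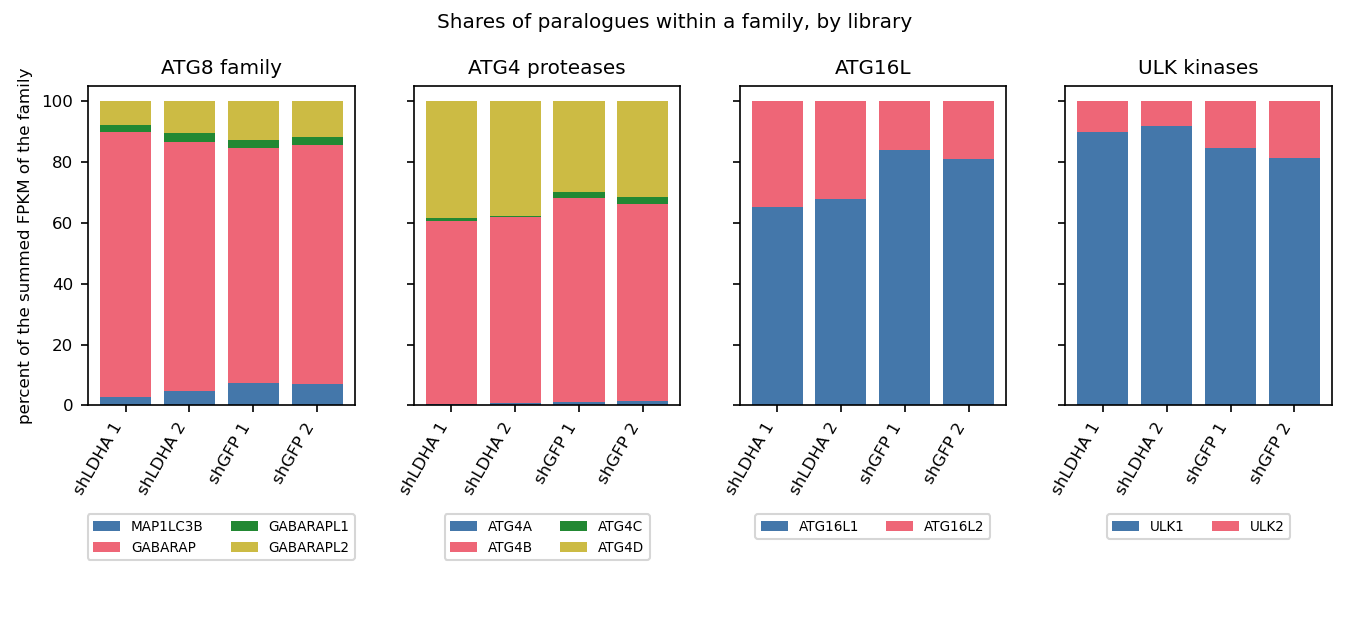
Percent of the summed FPKM of a family held by each paralogue in the 4 libraries, for the ATG8 family, the ATG4 proteases, the ATG16L pair and the ULK kinases. In both shLDHA libraries the shares of GABARAP (87.0% and 81.9%), ATG4D, ATG16L2 and ULK1 are above those of both shGFP libraries. The shares of the ATG2, WIPI, FUNDC and mitofusin pairs, not drawn, did not overlap either.

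None of the 5 cargo receptors passed, and none had an unadjusted p under 0.05. SQSTM1, which encodes p62, the receptor that gathers ubiquitinated cargo and is itself degraded by autophagy, was among the most abundant transcripts of the list. It had 512 and 524 in LDHA knockdown cells, against 456 and 457 in control cells. The scaled groups did not overlap, the log2 fold change was 0.18 (SE 0.07, adjusted p = 0.11), and it was -0.16 on the values as deposited (489 and 432 FPKM against 516 and 512). The SQSTM1 change was 0.20 without shLDHA replicate 1 and 0.16 without shLDHA replicate 2. SQSTM1 shares 21.0% of its exon bases with MRNIP on the opposite strand, whose row was at 6.28 FPKM or less. It shares 1.4% with MGAT4B, also on the opposite strand, whose row reached 224 FPKM. NBR1, a receptor related to p62, stood at -0.08 (adjusted p = 0.63), OPTN, which links ubiquitin to LC3 under TBK1, at 0.29 (0.17), CALCOCO2 (NDP52) at -0.22 (0.30) and TAX1BP1 at -0.01 (0.97).

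The mitophagy genes held changes of both kinds: FKBP8, PINK1 and FUNDC1 rose, VPS13D, MFN2 and VCP fell, and 6 did not pass. FKBP8 is an outer-membrane receptor with an LC3-interacting motif (chr19:18642561-18654887, GRCh37). It was among the most abundant of the 48 genes, with 863 and 765 in LDHA knockdown cells, against 374 and 384 in control cells. FKBP8 rose by 1.10 (SE 0.09, adjusted p = 0.0077), the largest rise of the list, and by 0.76 on the values as deposited (adjusted p = 0.028). With length and GC offsets its change was 0.33 (adjusted p = 0.049).

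PINK1 (chr1:20959951-20978004) had 45.4 and 46.4 in LDHA knockdown cells, against 25.8 and 26.6 in control cells. The replicates of each group lay close together, and PINK1 rose by 0.81 (SE 0.07, adjusted p = 0.0086). The change was 0.47 as deposited (adjusted p = 0.049), 0.56 with length and GC offsets (0.017) and 0.31 with equal totals (0.097). PINK1 shares 39.5% of its exon bases with the antisense RNA PINK1-AS, whose row was at 1.61 FPKM or less. No source says that reads were counted by strand, so reads of overlapping genes on opposite strands cannot be told apart. FUNDC1 (chrX:44382885-44402105), a receptor for mitophagy in hypoxia, had 7.38 and 9.99 in LDHA knockdown cells, against 4.73 and 5.11 in control cells, and rose by 0.79 (SE 0.19, adjusted p = 0.040). The FUNDC1 call was lost without shLDHA replicate 2 (adjusted p = 0.060) and with length offsets (0.30, adjusted p = 0.21). Its paralogue FUNDC2 did not pass (-0.03, adjusted p = 0.89).

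VPS13D, a lipid-transfer protein that mitochondrial clearance requires (chr1:12290087-12572099), had 1.53 and 1.85 in LDHA knockdown cells, against 3.78 and 3.61 in control cells. It fell by 1.09 (SE 0.18, adjusted p = 0.020). VPS13D has the longest annotated transcript of the list, 16355 bases, and with length and GC offsets its adjusted p was 0.077. MFN2, the mitofusin that PINK1 phosphorylates (chr1:12040238-12075268), had 28.9 and 25.0 in LDHA knockdown cells, against 42.1 and 40.8 in control cells. MFN2 fell by 0.62 (SE 0.10, adjusted p = 0.019) and by 0.43 with length and GC offsets (adjusted p = 0.033). VCP, the ATPase that extracts ubiquitinated mitofusins from the membrane (chr9:35053925-35072665), had 152 and 156 in LDHA knockdown cells, against 213 and 211 in control cells, and fell by 0.46 (SE 0.07, adjusted p = 0.015), or by 0.25 with length and GC offsets (adjusted p = 0.057).

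Of the mitophagy genes that did not pass, MFN1, the other mitofusin, stood at -0.29 (adjusted p = 0.29), and the receptor BCL2L13 had 19.4 and 20.1 in LDHA knockdown cells and 24.8 and 23.3 in control cells (-0.28, adjusted p = 0.070). PHB2, an inner-membrane receptor, stood at 0.13 (0.26), the deubiquitinase USP30, which opposes mitophagy, at -0.16 (0.71), and TBK1, the kinase that phosphorylates OPTN and p62, at -0.39 (0.28).

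**Figure D3:**
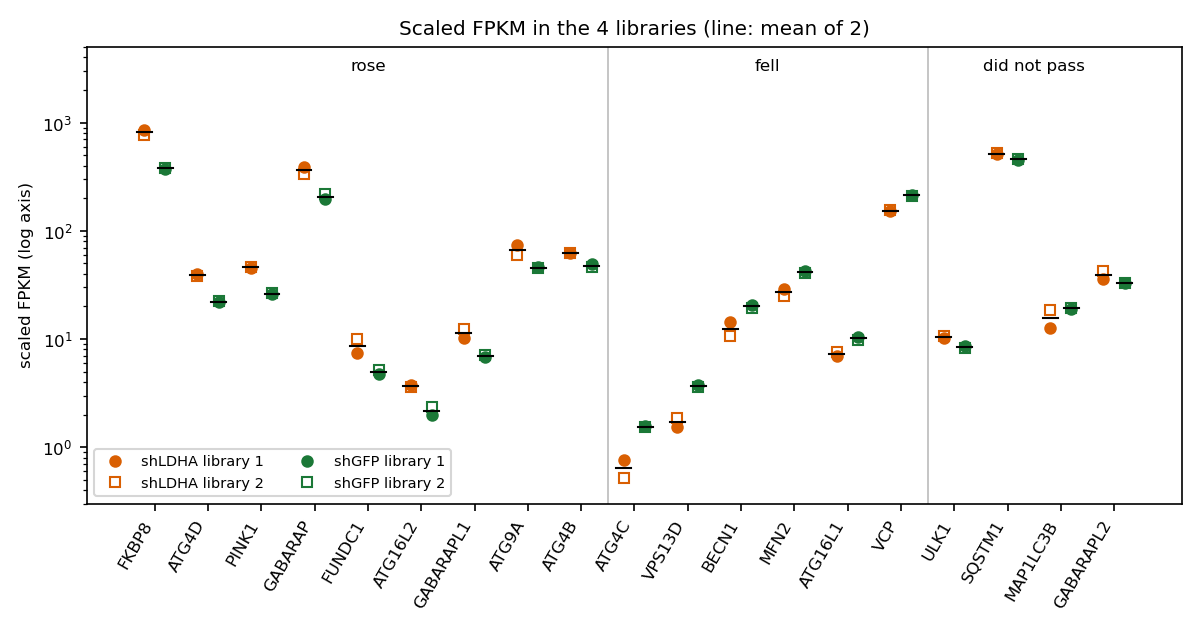
Scaled FPKM on a log axis in the 4 libraries for the 9 genes that rose, the 6 that fell and ULK1, SQSTM1, MAP1LC3B and GABARAPL2, which did not pass; shLDHA stands left of shGFP and the line is the mean of 2 libraries. For all 15 genes that passed, the 2 shLDHA points lie on the same side of the 2 shGFP points, and the shLDHA points of MAP1LC3B (12.6 and 18.6) are wide apart.

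The fold changes moved with the annotated length and GC content of the transcripts, in the list as in the rest of the table. Across 11801 rows with an annotation, Spearman's rho between log2 fold change and transcript length was -0.41, and between log2 fold change and GC content 0.40; over the 48 genes the values were -0.49 and 0.42. These describe genes measured in the same 4 libraries, which are not independent points. The 9 genes that rose had a median transcript length of 1963 bases and a median GC content of 58.6%. The 6 that fell had medians of 3522 bases and 48.5%, and the 33 that did not pass had 4246 bases and 44.8%. With length offsets 7 of the 48 genes rose and 6 fell, where 1884 and 1600 of 11801 rows did. Of the 15 calls, 10 were kept. With length and GC offsets, an alternative chosen after seeing the data, 4 of the 48 genes rose (FKBP8, PINK1, GABARAP and GABARAPL1) and 1 fell (MFN2), where 10.8% of all rows rose and 10.5% fell. The part of length, GC content or RNA quality in the other calls was not tested beyond these offsets.

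**Figure D4:**
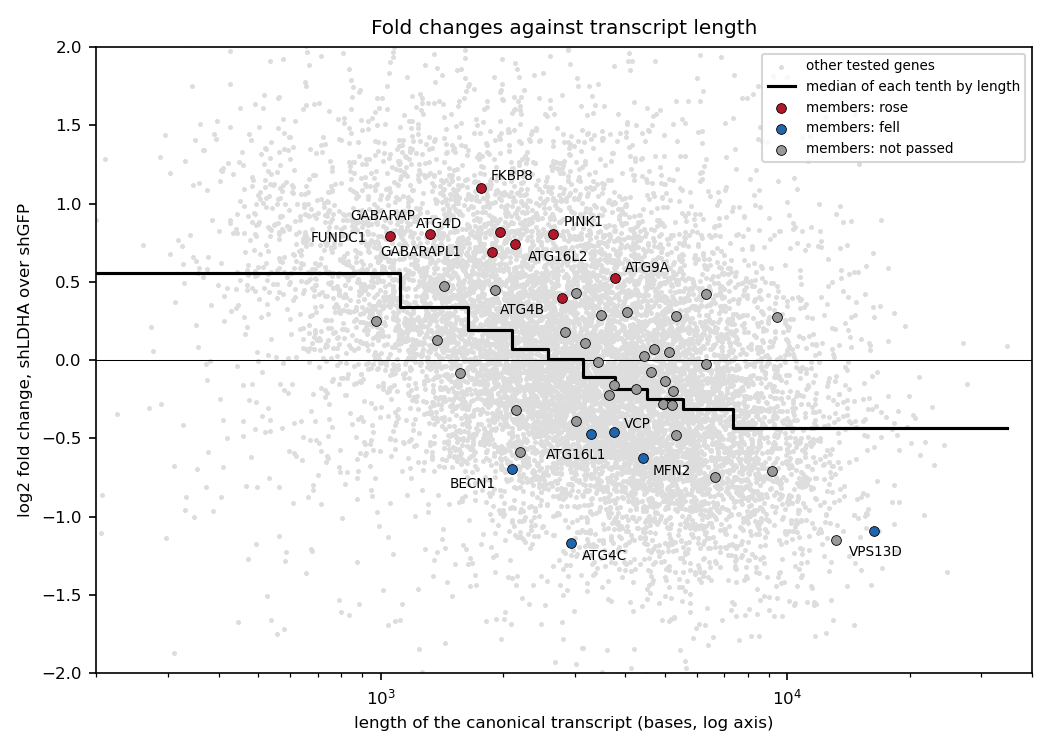
Log2 fold change, shLDHA over shGFP, against the length of the canonical transcript (log axis) for the 48 genes and the other rows with an annotation, with the median in 10 equal bins of rows by length as a step line; 170 other rows fall outside the axes. The median runs downward from 0.55 in the bin of shortest transcripts to -0.43 in the bin of longest, and the genes that rose have transcripts of 1054 to 3770 bases.

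**Figure D5:**
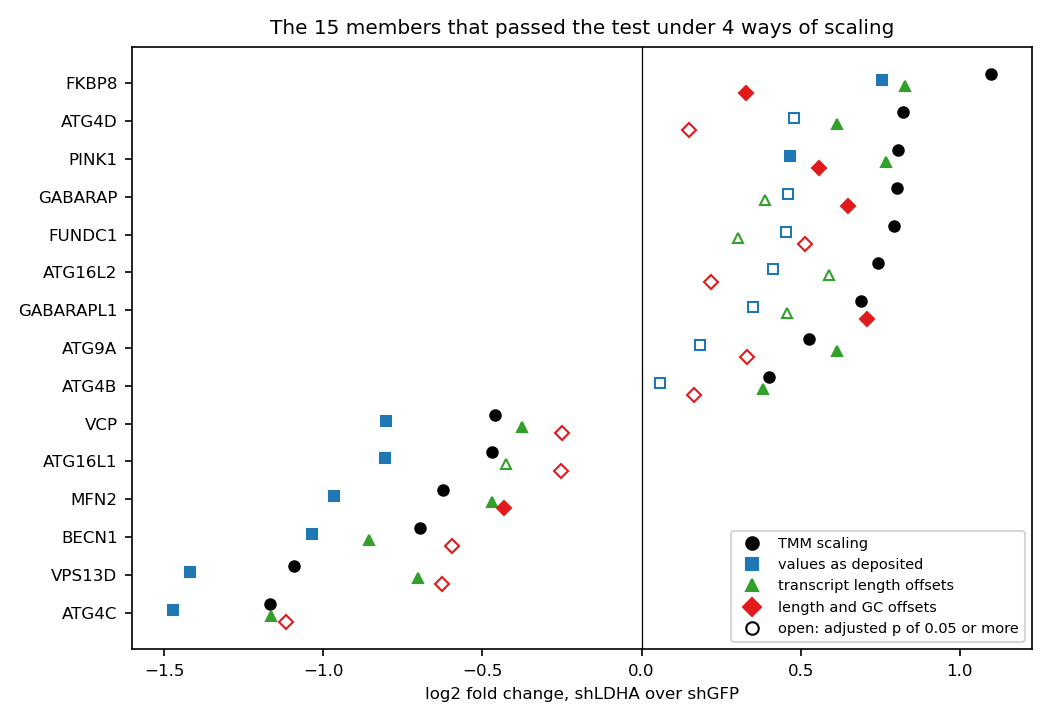
Log2 fold change, shLDHA over shGFP, of the 15 genes that passed, under TMM scaling, on the values as deposited, with transcript length offsets and with length and GC offsets; open symbols have an adjusted p of 0.05 or more. FKBP8, PINK1 and MFN2 are filled in all 4.

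The calls differed in how far they depended on the processing. In 9 alternatives, chosen with the tests, that kept all 4 libraries without a replicate block (scalings, pseudocounts, filters, variance trend and length offsets), FKBP8, MFN2, VPS13D and VCP passed in all 9, PINK1 and ATG4C in 8, ATG4D and BECN1 in 7, and ATG16L1 and GABARAP in 6. ATG4B and GABARAPL1 passed in 5, ATG9A and ATG16L2 in 4, and FUNDC1 in 3. The scaling alternatives all moved values downward. The median of all rows was -0.33 as deposited, -0.12 with the upper quartile and -0.48 with equal totals. In that order they kept 2, 5 and 1 of the 9 rises, and all 6 falls each time. These counts therefore cannot rank falls against rises. With the added length and GC offsets, FKBP8, PINK1, GABARAP, GABARAPL1 and MFN2 passed, and VPS13D (adjusted p = 0.077) and VCP (0.057) did not.

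Genes around the core machinery were read from 5 further lists. Their counts are descriptions to be set beside all rows tested, of which 18.1% rose and 12.9% fell. Of 13 other genes of autophagosome formation, 11 were tested, 1 rose and 3 fell (median 0.16). The endoplasmic reticulum protein EI24 had 72.2 and 78.4 in LDHA knockdown cells, against 123 and 127 in control cells (-0.73, adjusted p = 0.0096), and the PI3-kinase regulator NRBF2 had 4.48 and 4.36 against 7.15 and 6.24 (-0.58, adjusted p = 0.038). The WIPI paralogues differed, with WDR45B at -0.36 (adjusted p = 0.027) and WDR45 at 0.41 (0.042). Of 14 genes of autophagosome-lysosome fusion, 2 rose and 4 fell (median -0.18). The SNARE VAMP8 stood at 0.58 (adjusted p = 0.015) and the tethering subunit VPS16 at 0.52 (0.020). The late endosomal GTPase RAB7A stood at -0.43 (0.018) and VPS33A, a partner of VPS16, at -0.71 (0.021). With length and GC offsets EI24 (-0.62, adjusted p = 0.012) and RAB7A (-0.32, 0.032) passed. NRBF2 (-0.56, 0.054), VPS16 (0.35, 0.052), VPS33A (-0.38, 0.089), WDR45B (-0.22, 0.074), VAMP8 (0.18, 0.30) and WDR45 (0.006, 0.97) did not.

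Of 11 other cargo receptors, 10 were tested, 4 rose and 1 fell (median -0.04). The receptors of the endoplasmic reticulum TEX264 (0.62, adjusted p = 0.012) and CALCOCO1 (0.79, 0.015) and the glycogen receptor STBD1 (0.85, 0.029) rose, and the ferritin receptor NCOA4 fell (-0.52, 0.018). Of 22 other mitophagy genes, 5 rose and 3 fell (median 0.04), near the 18.1% and 12.9% of all rows tested. FIS1, an outer-membrane adaptor of mitochondrial fission, had 182 and 190 in LDHA knockdown cells, against 90.4 and 90.7 in control cells, and rose by 1.04 (SE 0.07, adjusted p = 0.0076). TBC1D17, a RAB7 GTPase-activating protein that FIS1 binds, rose by 0.92 (adjusted p = 0.0078) and NIPSNAP1, which marks damaged mitochondria, by 0.67 (0.010), while the ubiquitin ligase ARIH1 fell by 0.99 (0.025). As deposited, none of the other cargo receptors or fusion genes rose, and of these 4 mitophagy genes FIS1 (0.69, adjusted p = 0.020) and TBC1D17 (0.58, 0.043) still did. With length and GC offsets CALCOCO1 (1.11, adjusted p = 0.011), STBD1 (0.98, 0.028), NIPSNAP1 (0.60, 0.014) and TBC1D17 (0.36, 0.035) passed. FIS1 (0.24, 0.056), TEX264 (-0.05, 0.65), NCOA4 (-0.25, 0.079) and ARIH1 (-0.56, 0.11) did not.

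Of 11 transcriptional regulators of autophagy, 9 were tested, 1 rose, 1 fell and 7 did not pass (median -0.31). TFEB, the master factor of lysosomal genes, had 14.8 and 11.6 in LDHA knockdown cells, against 8.10 and 8.17 in control cells (0.68, adjusted p = 0.036). As deposited the TFEB change was 0.34 (adjusted p = 0.28). FNIP1, a partner of folliculin, which keeps TFEB out of the nucleus, had 0.576 and 0.496 in LDHA knockdown cells, against 1.24 and 1.34 in control cells (-1.13, adjusted p = 0.040). With length and GC offsets neither passed, at 0.10 for TFEB (adjusted p = 0.62) and -0.75 for FNIP1 (0.096).

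The promoters of the list were read for letters that factors of autophagy genes are known to bind: CACGTG, the core of the E-box and of TFEB's CLEAR element; TCACGTGA, which contains it; TGACNNNGC, the antioxidant response element of NRF2; and TGATGCAA, an ATF4 composite site. RefSeq promoters (GRCh38.p14, 250 bases before to 50 after each start) matched 43 of the 49 genes with 55 promoters, and both strands were searched. CACGTG was in 3 of the 55 (ATG3, ATG14 and TBK1), against 7.26% of all 35116 promoters, TCACGTGA in 1 (ATG3), against 0.98%, TGACNNNGC in 5 (ATG101, CALCOCO2, FUNDC2, MAP1LC3B and VCP), against 13.3%, and TGATGCAA in 0, against 0.866%. Of the 15 genes that passed, VCP alone held a match among those with a promoter; FKBP8, PINK1 and ATG4D had none in the table used. The stretches upstream of the start are shown because VCP is the gene that passed and MAP1LC3B, ATG3 and ATG14 act in the LC3 pathway, with the match in capitals.
VCP, chr9:35072776-35072844, minus strand, match 189 bases before the start: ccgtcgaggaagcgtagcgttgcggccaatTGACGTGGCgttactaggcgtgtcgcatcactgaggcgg
MAP1LC3B, chr16:87392260-87392328, plus strand, match 46 bases before the start: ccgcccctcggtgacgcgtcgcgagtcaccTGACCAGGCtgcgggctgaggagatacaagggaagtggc
ATG3, chr3:112561963-112562010, minus strand, match 18 bases before the start: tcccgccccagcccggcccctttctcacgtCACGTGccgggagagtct
ATG14, chr14:55411831-55411881, minus strand, match 21 bases before the start: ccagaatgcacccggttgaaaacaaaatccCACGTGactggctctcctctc
Of these genes VCP fell, and MAP1LC3B, ATG3 and ATG14 did not pass. A match of letters is a description and not a site.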

How the data were processed

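RNA-Seq of 4 libraries, 2 shLDHA and 2 shGFP, was analysed as grouped by the labels. The deposited table, labelled as raw counts, holds FPKM with 2 decimals made by the authors, 59108 rows. The study's methods name Trim Galore, STAR on hg19, HTSeq and GENCODE, whereas the processing notes of the submitters give HISAT2 and hg38 beside Trim Galore; no source names the tool that divided by length, or says which build the table rests on. An error of the length scaling is shared by all libraries of a gene only if each was divided by the same length, which no source states.

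Rows without a name (224) or with a symbol turned into a date (27) were left out, and where a symbol stood on several rows the row of highest mean was used. Rows with 0.5 FPKM in 2 libraries were divided by trimmed-mean-of-M factors (trim 30% of M, 5% of A) and tested as log2(FPKM + 0.1) with limma 3.58.1 in R 4.3.3, with a variance trend and Benjamini-Hochberg adjustment over 13291 rows. Fold changes on this scale understate the change of low genes. The script was tested on simulated data whose spread came from the shGFP pair, the closer pair. That run checks the code and not the calls given here. Length, GC content and positions came by symbol from GENCODE on GRCh37, promoters from RefSeq.

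The genes named in full are those with an adjusted p under 0.05, ULK1, SQSTM1, MAP1LC3B and the ATG8 family; other lists give up to 4 genes of lowest p. The members and lists were chosen with earlier results of these data known. In total 15 alternatives were planned and 1 (length and GC offsets) was added after seeing the data.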

Additional observations from a re-analysis of the deposited data

Results flagged for a closer look

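Rows of the table without a gene name, which entered no comparison, took 0.44% of the FPKM total in shLDHA replicate 1 and 3.53% in shLDHA replicate 2, against 0.431% and 0.361% in the shGFP libraries. Both shLDHA values were above the controls, but shLDHA replicate 1 lay close to them, and only shLDHA replicate 2 stood apart.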

How the results depend on the processing

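As deposited, 2 genes rose and 11 fell (median -0.33), where 904 and 3114 of all 13291 rows did. With upper quartile scaling 5 rose and 7 fell (median -0.11), where 1895 and 2458 rows did. With equal totals 1 rose and 16 fell (median -0.48), where 708 and 4603 rows did. The higher share of all calls was 58.5% with TMM scaling, 22.5% as deposited, 43.5% with the upper quartile and 13.3% with equal totals. Without the filter on low values 5 genes rose and 3 fell, where 1648 and 998 of 22087 rows did. With length and GC offsets 4 rose and 1 fell (median 0.094), where 1278 and 1242 of 11801 rows did. ULK1 turned to -0.056 as deposited, -0.21 with equal totals and -0.055 with length and GC offsets; GABARAPL2 to -0.089 as deposited, -0.24 with equal totals and, with length offsets with or without the block, -0.26; SQSTM1 to -0.16 as deposited and -0.32 with equal totals; ATG4B to -0.10 with equal totals. The cause was not tested. Leaving out 1 library in turn gave 0 to 11 genes that rose, 0 to 6 that fell, medians of -0.030 to 0.12 and LDHA changes of -2.52 to -2.37; without either shGFP library limma called 0 rows, with 3419 and 3693 at an unadjusted p under 0.05. With the replicate block, 9 genes rose and 5 fell, where 2209 and 1233 of 13291 rows did. Of the 15 calls, 12 were kept (ATG4C 0.065, ATG16L1 0.075 and ATG16L2 0.063 were lost). Same-numbered libraries correlated at 0.12 after removing group means, and the labels do not say that a number pairs them.

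Both pseudocounts and the filter of 1 FPKM kept all 15 calls, and the fit without a variance trend kept 10. With 2 libraries a group and no counts, changes in genes near 0.5 FPKM such as ATG2B, ATG4A and ATG4C are the least certain.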
